A study of Homo sapiens with 3 samples.

Results

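The 10 genes described here encode Polycomb repressive complex 2 (PRC2): the catalytic subunits EZH1 and EZH2, the core subunits EED, SUZ12, RBBP4 and RBBP7, and the accessory subunits JARID2, AEBP2, MTF2 and PHF19. They were taken by name, not by their values, and all 10 were found among the 29689 gene symbols measured by RNAseq. The 3 libraries came from orthotopic xenografts of SUM-149, an established human triple-negative breast cancer (TNBC) cell line, injected with Matrigel into mammary fat pads of female Nu/Nu mice, which lack T cells. The vehicle tumor was mock treated, the CDK2i tumor received the CDK2 inhibitor dinaciclib for 10 days and the EZH2i tumor received an EZH2 inhibitor, labelled EPZ6438, for 10 days. The study describes GSK343 as the EZH2 inhibitor given to SUM-149 xenografts in its tumor growth experiment. Its animal methods name EPZ-6438 for tumor-bearing mice without separating the models. The compound behind the EZH2i library was taken from the label. Each treatment has 1 library, and whether it came from 1 tumor or several is not given in the sources used here. No difference below has a replicate check, and no p-value was computed.

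PRC2 places methyl groups on histone H3 at lysine K27 (H3K27me3), a mark of silent genes. EZH2 or its paralog EZH1 carries the methyltransferase domain, which works only when bound to EED and SUZ12. EED reads the finished mark and stimulates the enzyme, SUZ12 holds the complex together, and RBBP4 or RBBP7 binds histones. A core complex joins either JARID2 with AEBP2 or a Polycomb-like protein (MTF2, PHF19 or PHF1), and these partners help it find and hold its target genes. EZH2 is abundant in dividing cells and EZH1 is known from resting tissue. EPZ6438 (tazemetostat) occupies the cofactor pocket of EZH2, dinaciclib blocks CDK2 and several other cyclin-dependent kinases, and the study places CDK2 upstream of EZH2 as the kinase that phosphorylates it. The tables hold transcript levels only, so neither the proteins nor the mark are measured here.

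The libraries held about 16800000 fragments (vehicle), 19100000 fragments (CDK2i) and 17500000 fragments (EZH2i), as read from the step that 1 fragment makes among weakly expressed genes. The basal-like markers KRT5, KRT14, KRT17, KRT6A, EGFR and CDH3 were all detected in all 3 libraries, with summed levels of 6304 FPKM (fragments scaled by gene length and by library size) in vehicle, 15247 in CDK2i and 6111 in EZH2i. ESR1, which encodes the estrogen receptor, was at most 1.10 FPKM, PGR was listed at 0 in vehicle and ERBB2 was between 21.9 and 30.4 FPKM. Markers of cell types that a host can supply were read as human genes. Whether their fragments came from host cells or from the tumor cells was not tested. The 6 fibroblast markers summed to 24.4 to 38.3 FPKM, the 3 endothelial markers to 0.466 to 0.833 and the 6 myeloid markers to 3.59 to 8.43. CD68 and AIF1 were listed at 0 in both treated tumors and PTPRC in EZH2i. CD14, nearly all of the myeloid sum, was called lower in EZH2i than in vehicle (log2 change −1.35), where called means a fold change above 2 with the higher library above log2 FPKM 3 (8 FPKM), the fold and expression thresholds of the study. Only 3 of the 6 fibroblast markers were expressed (mean log2 FPKM above 1 and no value listed as 0). Among these, LUM was called higher in CDK2i (1.02) and DCN had the lowest change there (−0.70). In EZH2i DCN had the highest (0.76) and COL1A1 the lowest (0.31), and EZH2i against CDK2i ran from COL1A1 (−0.64) to DCN (1.46). COL1A2, COL3A1 and PDGFRB, below this limit, changed by 2.60, −1.44 and −0.19 in CDK2i. In EZH2i all of them were lower than in vehicle (−0.325, −2.07 and −0.70). The 4 keratins were called higher in CDK2i than in vehicle (1.17 for KRT5 to 1.35 for KRT14, with EGFR lowest of the list at 0.38) and than in EZH2i (KRT17 differing most, −1.80, and EGFR opposite at 0.68). Of all genes that reached the expression threshold, 3.27% were called higher in CDK2i than in vehicle and 6.53% lower in EZH2i than in CDK2i. EGFR was called higher in EZH2i than in vehicle (1.05), where KRT17 was lowest (−0.51). Whether mouse fragments were removed before alignment to the human genome is not given in the sources used here, and their part in the PRC2 values was not tested. In bulk tumor RNA, fewer cells of a type and less RNA per cell cannot be told apart.

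The promoters of EZH1, EZH2, SUZ12 and MTF2 are shown because the contrasts below turn on the EZH1 and EZH2 pair, on SUZ12 as their shared scaffold and on MTF2, the member that differed most. Each line holds the 250 bases before the gene start from RefSeq on GRCh38.p14, 5′ to 3′ on the strand of the gene. Capitals mark E2F-type motifs (TTTCCCGC, TTTGGCGC, TTTCGCGC or TTTGCCGC, either strand) and CCAAT boxes (CCAAT, either strand). The CCAAT box was added to the search after the sequences had been read.
EZH1 (chr17:42745041-42745290, minus strand): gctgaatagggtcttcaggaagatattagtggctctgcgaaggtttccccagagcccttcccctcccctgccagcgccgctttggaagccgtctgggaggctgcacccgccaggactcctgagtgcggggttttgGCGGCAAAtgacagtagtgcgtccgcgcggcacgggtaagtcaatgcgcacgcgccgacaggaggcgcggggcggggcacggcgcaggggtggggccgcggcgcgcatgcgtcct
EZH2 (chr7:148884292-148884541, minus strand): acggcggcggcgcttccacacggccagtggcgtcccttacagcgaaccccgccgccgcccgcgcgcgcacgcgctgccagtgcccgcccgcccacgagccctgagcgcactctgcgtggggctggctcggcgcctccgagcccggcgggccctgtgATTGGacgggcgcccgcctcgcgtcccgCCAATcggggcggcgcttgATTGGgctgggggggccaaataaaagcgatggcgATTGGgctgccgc
SUZ12 (chr17:31936757-31937006, plus strand): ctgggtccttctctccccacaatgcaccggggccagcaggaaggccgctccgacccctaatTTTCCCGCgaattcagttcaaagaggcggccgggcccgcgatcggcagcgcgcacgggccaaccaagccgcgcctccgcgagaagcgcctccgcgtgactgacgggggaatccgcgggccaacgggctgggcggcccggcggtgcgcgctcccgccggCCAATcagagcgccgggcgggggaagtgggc
MTF2 (chr1:93079033-93079282, plus strand): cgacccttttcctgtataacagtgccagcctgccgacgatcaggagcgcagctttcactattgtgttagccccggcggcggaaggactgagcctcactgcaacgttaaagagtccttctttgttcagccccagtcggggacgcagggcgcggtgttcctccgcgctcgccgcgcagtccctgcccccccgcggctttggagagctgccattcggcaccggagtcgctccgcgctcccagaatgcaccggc

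All 10 members had a promoter entry. An E2F-type motif was found in 3 of them, EZH1, SUZ12 and AEBP2, and in 2.79% of the 27305 promoters of the same length. The EZH2 window held 4 CCAAT boxes, a number reached by 0.93% of all promoters, while RBBP4 held 2 and EED, SUZ12, RBBP7, JARID2 and PHF19 held 1 each, against 10.0% of all promoters with at least 2 and 33.0% with at least 1. EZH1, AEBP2 and MTF2 held no CCAAT box. The CCAAT box was picked after these windows had been read, so its shares only describe them. The promoters compared were not matched for GC content. These are matches of letters, and they say nothing of binding by a factor or of its absence.

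In the vehicle tumor the histone-binding subunits RBBP7 and RBBP4 were the most abundant members at 22.1 and 21.8 FPKM, and SUZ12 was the least abundant at 5.08 FPKM. Between them, in falling order, stood AEBP2 (13.8 FPKM), PHF19 (12.7), EZH1 (8.46), EZH2 (7.69), EED (7.52), JARID2 (6.45) and MTF2 (5.72). With no replicate, the scatter between the 2 treated libraries served as a yardstick. This scatter includes any effects of both treatments, so a change within it was not shown to be noise. For each gene the spread is the SD of EZH2i minus CDK2i values (log2) among its 200 closest neighbors by expression, and it was 0.64 to 0.93 for the members. It describes changes between libraries and not differences between genes inside a library, so the order above carries no error estimate. RBBP4 and RBBP7 also serve other chromatin complexes, and their levels are not those of PRC2 alone.

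**Figure D1:**
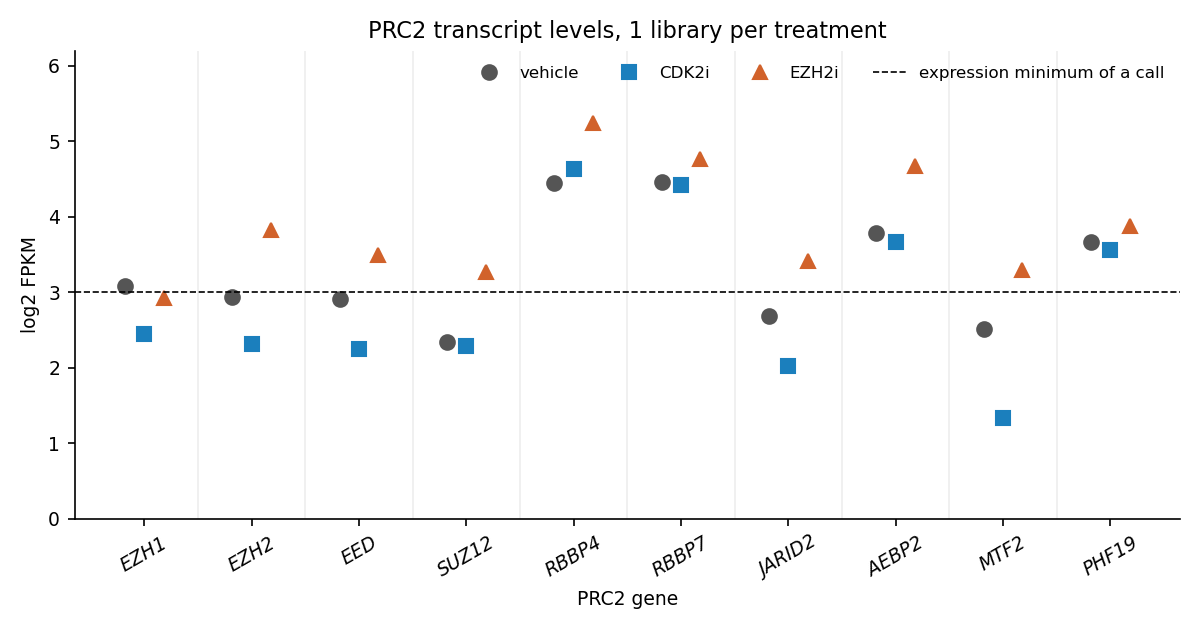
Level of each PRC2 gene (log2 FPKM, vertical axis) in the vehicle (circle), CDK2i (square) and EZH2i (triangle) libraries, with the expression minimum of a call dashed at log2 FPKM 3. At the deposited scaling every member except EZH1 lies above its vehicle value in EZH2i, and MTF2 in CDK2i is the lowest point at 1.33.

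In the CDK2i tumor none of the 10 members was called against vehicle. Of the 6632 genes that reached the minimum in this comparison, 3.27% were called higher and 8.07% lower, and only 5 members reached it. MTF2 was the member farthest from vehicle, 2.27-fold lower, but both of its values lay under the minimum. The median log2 change of the members was −0.38, against −0.11 over the 11109 expressed genes (mean log2 FPKM above 1 and no value listed as 0). Of the members 9 lay below vehicle and 1 above it, as did 6441 and 4659 of the expressed genes.

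MTF2, a Polycomb-like protein that binds unmethylated CpG-rich DNA, was at 5.72 FPKM in vehicle and 2.52 in CDK2i, a log2 change of −1.18. Taken with the length of the canonical transcript, this is about 391 against 197 fragments, and the counting interval of the change ran from −1.43 to −0.93 (95% exact binomial, counting error only). The change exceeded the spread of 0.86 and lay at percentile 7.62 of the expressed genes. PHF19, the related Polycomb-like protein, was at 12.7 and 11.8 FPKM. Its log2 change of −0.10 was within the spread of 0.86 and changed sign with the scaling between libraries.

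EZH2 was at 7.69 FPKM in vehicle and 4.99 in CDK2i, and EZH1 at 8.46 and 5.46. Both catalytic subunits were thus lower in the CDK2i tumor by similar factors, 1.54 and 1.55, with log2 changes of −0.62 for EZH2 and −0.63 for EZH1 that stayed within their spreads of 0.93 and 0.82. EED was at 7.52 and 4.74 FPKM (log2 change −0.67). JARID2, a DNA-binding cofactor that recruits the complex, was at 6.45 and 4.06 FPKM (−0.67). These 4 genes lay close together, at percentiles 20.2 to 22.0 of the expressed genes.

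The remaining members differed little between the vehicle and CDK2i tumors. SUZ12 was at 5.08 and 4.91 FPKM, AEBP2, a zinc finger protein that contacts DNA and nucleosomes, at 13.8 and 12.6, RBBP7 at 22.1 and 21.4, and RBBP4 at 21.8 and 24.7. Their log2 changes of −0.13 to 0.18 were all within the spread, and those of SUZ12, RBBP7 and AEBP2 changed sign with the scaling between libraries.

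In the EZH2i tumor none of the 10 members was called against vehicle either, although all 10 reached the minimum. Of the 7414 genes that reached it, 8.93% were called higher and 4.42% lower. EZH2, the gene for the inhibited enzyme, was 1.84-fold higher than in vehicle, close to AEBP2, also at 1.85-fold, and SUZ12 at 1.90-fold, while EZH1 stayed near its vehicle level. The median log2 change of the members was 0.75, against 0.19 over the expressed genes. Of the members 9 lay above vehicle and 1 below, as did 6830 and 4272 of the expressed genes. The vehicle library is shared with the CDK2i comparison, so a low or high vehicle value enters both.

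EZH2 was at 7.69 FPKM in vehicle and 14.2 in EZH2i, a log2 change of 0.88 with a counting interval of 0.69 to 1.07. This change was within the spread of 0.93 and lay at percentile 86.0 of the expressed genes. EZH1 was at 8.46 and 7.63 FPKM (log2 change −0.15, within the spread of 0.82, and above 0 with equal summed FPKM). Neither value exceeded the spread, and the ratio of the paralogs is given below.

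Among the core subunits SUZ12 was at 5.08 FPKM in vehicle and 9.63 in EZH2i, a log2 change of 0.92 beyond the spread of 0.85. RBBP4 was at 21.8 and 37.8 FPKM, a change of 0.80 beyond the spread of 0.79. EED was at 7.52 and 11.3 FPKM, a change of 0.59 within the spread of 0.84, and RBBP7 at 22.1 and 27.1 FPKM, a change of 0.295 within the spread of 0.64. Of the accessory subunits AEBP2 was at 13.8 and 25.5 FPKM, a change of 0.88 beyond the spread of 0.68. JARID2 was at 6.45 and 10.7 FPKM (0.73), MTF2 at 5.72 and 9.78 (0.77) and PHF19 at 12.7 and 14.7 (0.21), each within the spread. The sign of the PHF19 value changed with centring on the median expressed gene, and that of RBBP7 with the correction described next.

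The EZH2i values moved with the base composition of the transcripts. Over expressed genes with a transcript of 38 to 42% GC the median log2 change in EZH2i was 0.65, and over those of 58 to 62% GC it was −0.19. In CDK2i the same medians were −0.071 and −0.065, and over all bins they ran from −0.18 (50 to 54% GC) to 0.095 (66 to 70% GC). The members had a median GC content of 44.7% and a median transcript length of 4322 bases, against 49.7% and 3092.5 bases over the 10178 expressed genes with an annotated transcript. MTF2 (37.5% GC), SUZ12 (38.2%), AEBP2 (38.6%) and RBBP4 (41.4%) were the poorest in GC, and PHF19 (56.6%) and EZH1 (50.6%) the richest. Removing the trend with GC content and length over expressed genes brought the median change of the members in EZH2i to 0.10. RBBP4 was then at −0.0018, AEBP2 at 0.09, MTF2 at 0.07 and SUZ12 at 0.20, while EZH2 was at 0.52, EED at 0.31, JARID2 at 0.27 and EZH1 at −0.51. EZH2 lay at percentile 89.3 of the 10178 genes after this correction and EZH1 at percentile 12.4. In CDK2i the correction left MTF2 at −1.06, percentile 6.17.

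**Figure D2:**
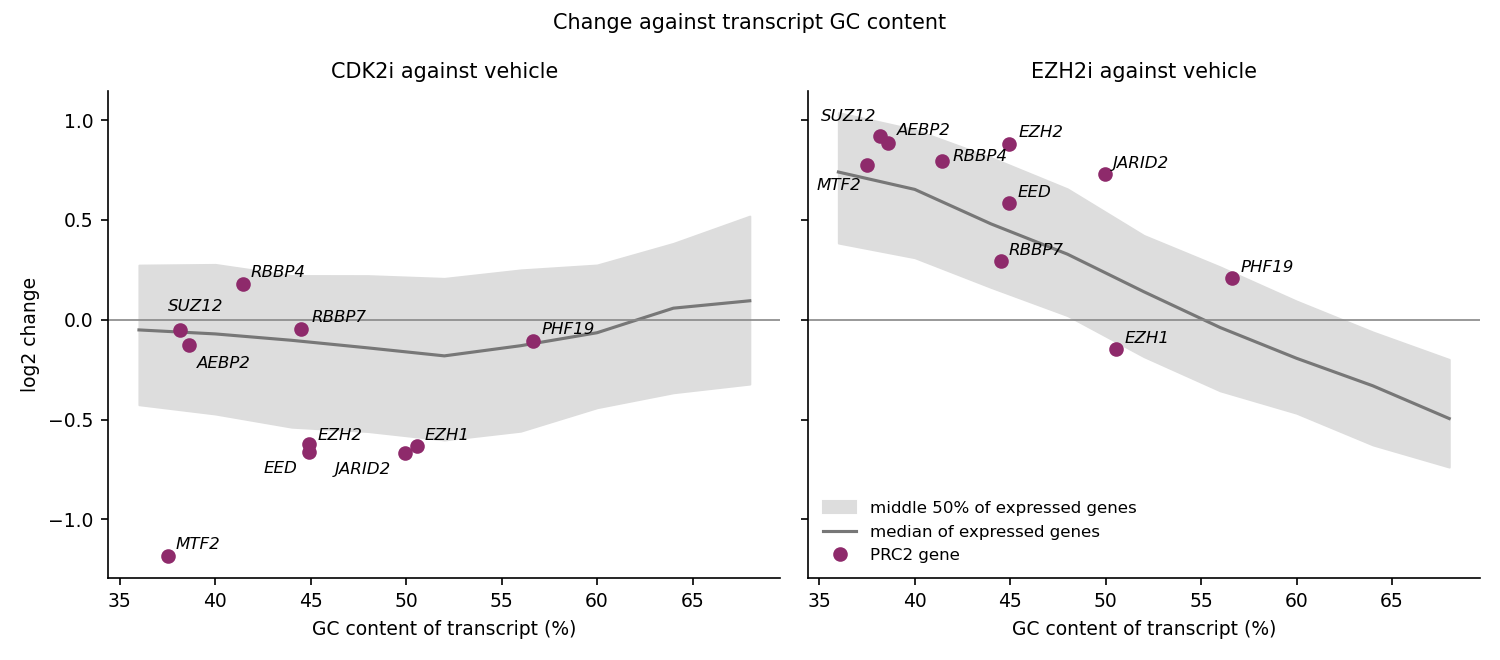
Log2 change against vehicle (vertical axis) by GC content of the canonical transcript (%, horizontal axis) for the PRC2 genes (points), with the median (line) and middle 50% (band) of expressed genes in bins of GC content, CDK2i left and EZH2i right. In EZH2i the line runs from 0.74 in the lowest bin to −0.50 in the highest, with MTF2 close to it. EZH2 and JARID2 lie above the band there and EZH1 just below it. In CDK2i MTF2 lies far below the band, and EZH1, EZH2, EED and JARID2 lie just below it.

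Set directly against the CDK2i tumor, the EZH2i tumor had 5 members called higher and none lower: EZH2, EED, JARID2, AEBP2 and MTF2. These were 5 of the 9 members that reached the minimum, and among the 7394 genes that reached it 17.5% were called higher and 6.53% lower. This comparison joins the same libraries as the former comparisons and adds no independent sample. The median log2 difference of the members was 0.99, against 0.35 over the expressed genes.

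MTF2 differed most between the treated tumors, at 2.52 FPKM in CDK2i and 9.78 in EZH2i, 3.88-fold higher. EZH2 was 2.84-fold higher (4.99 and 14.2 FPKM), JARID2 2.63-fold (4.06 and 10.7), EED 2.38-fold (4.74 and 11.3) and AEBP2 2.02-fold (12.6 and 25.5). AEBP2 lay just past the fold threshold and SUZ12, 1.96-fold higher, just short of it. RBBP4 (1.53-fold), EZH1 (1.40-fold), RBBP7 (1.27-fold) and PHF19 (1.24-fold) differed less. These calls depended on the scaling. With each library centred on its median expressed gene only EZH2 and MTF2 were called, when 6.39% of the 7094 genes that reached the minimum were called higher and 16.0% lower. With equal summed FPKM, taken over all genes or without ribosomal protein and mitochondrially encoded genes, 6 were called, SUZ12 being added, when 21.0% and 24.3% of the genes that reached the minimum were called higher. With the GC and length trend removed only MTF2 was called, at a log2 difference of 1.13, when 7.10% of the 7074 genes that reached the minimum were called higher and 7.28% lower. EZH2 was then at 0.92, JARID2 at 0.80 and EED at 0.74, while AEBP2 (0.13), SUZ12 (0.13), PHF19 (0.07) and EZH1 (−0.05) were near 0 and RBBP4 (−0.25) and RBBP7 (−0.21) were below it.

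**Figure D3:**
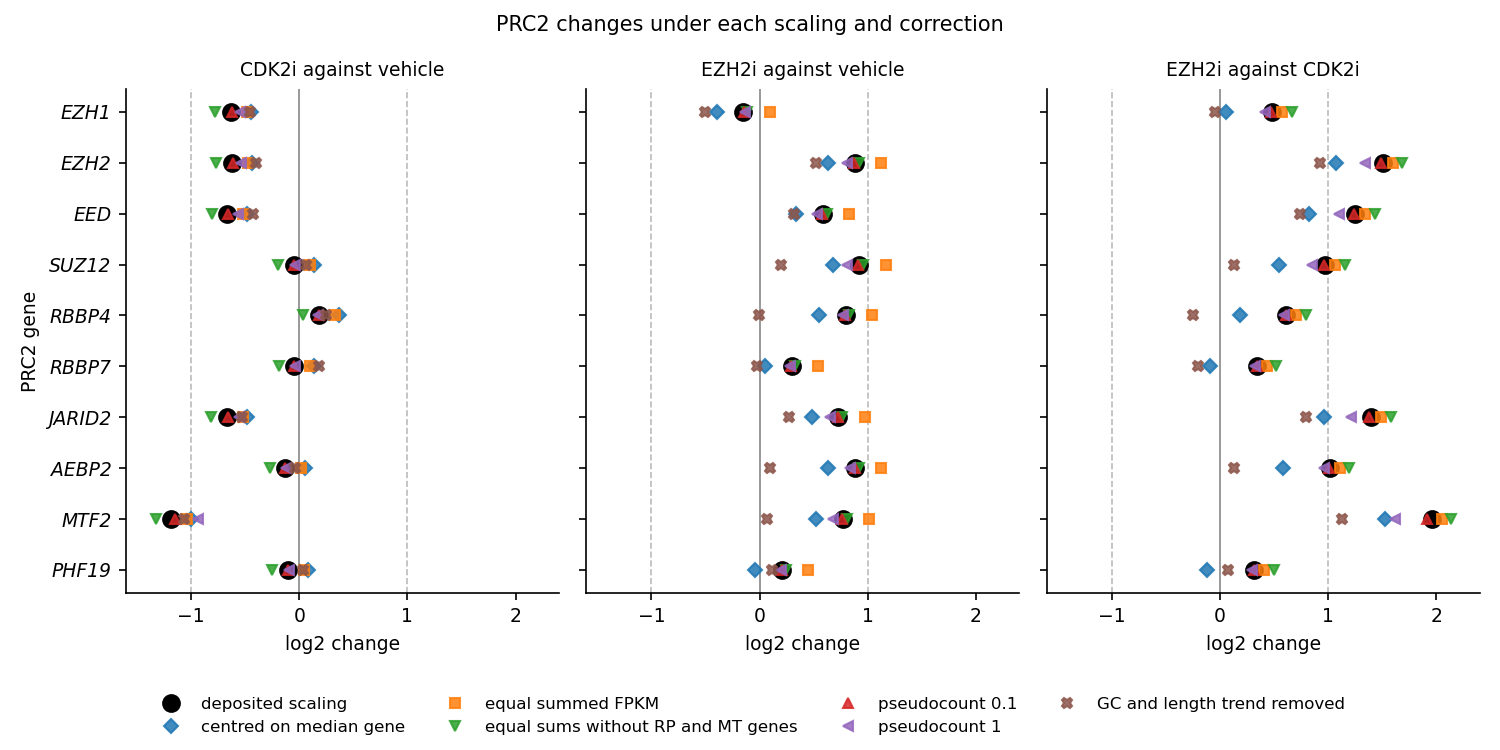
Log2 change of each PRC2 gene (rows) in the 3 comparisons (panels) with the deposited scaling (large black point) and 6 alternatives (small points; RP, ribosomal protein; MT, mitochondrially encoded), with the fold threshold dashed. The EZH2i panels shift to the left with the GC and length trend removed, most for SUZ12, RBBP4, AEBP2 and MTF2, while MTF2 in CDK2i stays between −1.33 and −0.93.

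Ratios of members within a library do not depend on the scaling between libraries. EZH2 stood at 0.909 times the level of EZH1 in vehicle and 0.915 times in CDK2i, but at 1.86 times in EZH2i. The ratio of EZH2 to EZH1 was thus 2.04-fold higher in EZH2i than in vehicle, a log2 difference of 1.03 with a counting interval of 0.78 to 1.28. It was 1.03 as well with the GC and length trend removed. Between CDK2i and vehicle the ratio differed by 0.01 on the log2 scale, with a counting interval of −0.29 to 0.31. Counting intervals do not cover differences between tumors. No spread was computed for a ratio, so whether these differences exceed the scatter between libraries was not tested. The spreads of the single genes were 0.93 for EZH2 and 0.82 for EZH1, and 0.86 each for MTF2 and PHF19. The pairs were chosen after the values were seen.

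MTF2 stood at 0.451 times the level of PHF19 in vehicle, 0.214 times in CDK2i and 0.667 times in EZH2i. The log2 difference of this ratio from vehicle was −1.08 in CDK2i (counting interval −1.36 to −0.79) and 0.56 in EZH2i (0.34 to 0.79). With the trend removed the difference was −1.10 in CDK2i and −0.04 in EZH2i. JARID2 stood at 0.467 times the level of AEBP2 in vehicle, 0.321 times in CDK2i and 0.419 times in EZH2i. EED, which was above SUZ12 in vehicle (1.48 times) and in EZH2i (1.17 times), was at 0.966 times its level in CDK2i. The EZH2i differences from vehicle of these ratios turned sign with the trend removed, from −0.155 to 0.18 on the log2 scale for JARID2 over AEBP2 and from −0.34 to 0.12 for EED over SUZ12. RBBP4 was at 0.988 times the level of RBBP7 in vehicle, 1.16 times in CDK2i and 1.40 times in EZH2i, and the EZH2i difference of 0.50 on the log2 scale fell to 0.02 with the trend removed.

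**Figure D4:**
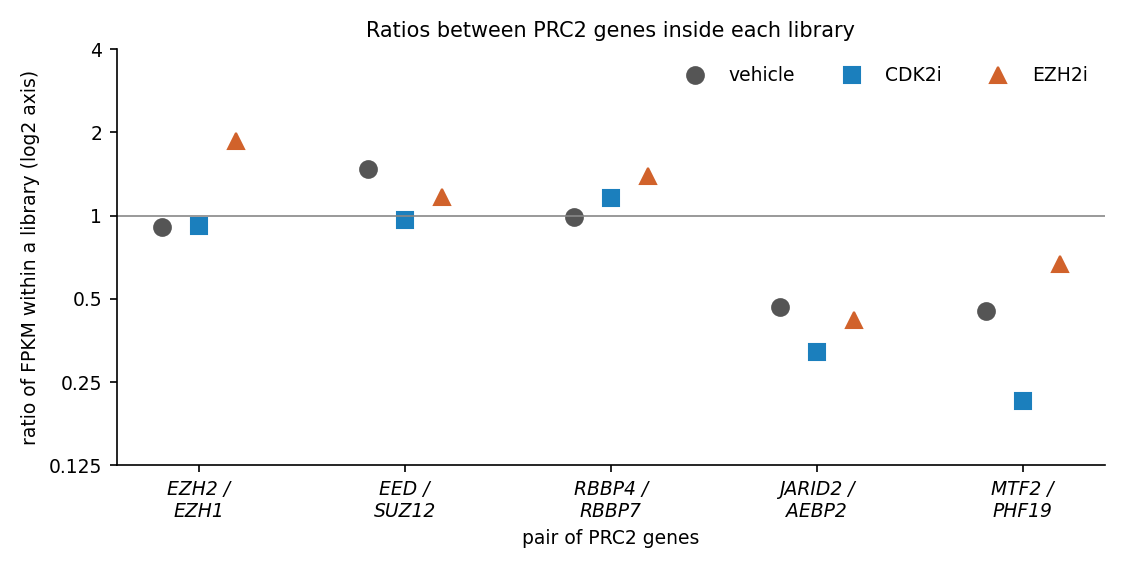
Ratio of FPKM values inside each library (log2 axis) for 5 pairs of PRC2 genes in the vehicle (circle), CDK2i (square) and EZH2i (triangle) libraries. EZH2 over EZH1 is near 1 in vehicle and CDK2i and 1.86 in EZH2i, and MTF2 over PHF19 is lowest in CDK2i at 0.214.

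PHF1, the Polycomb-like gene outside the 10, was the most abundant of its family, with 41.2 FPKM in the vehicle tumor, 47.3 under CDK2i and 32.4 under EZH2i. Of the further PRC2-associated genes, C17orf96 (EPOP), a partner of the Polycomb-like form, was at 2.99, 3.16 and 3.09 FPKM. LCOR, LCORL and C10orf12, the last of which is now placed within LCOR, were at most 3.04 FPKM. None of these 5 genes was called in any of the 3 comparisons, and only PHF1 reached the minimum.

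PRC1, the complex that ubiquitinates histone H2A and reads H3K27me3 through its CBX proteins, had 21 genes measured. CBX8 and CBX2 were called lower in CDK2i, 2 of 10 genes that reached the minimum, against 8.07% of all genes that did. Their log2 changes were −1.44 and −1.36, and none was called higher. In EZH2i 1 of 11 was called higher, BMI1 at 1.04, against 8.93% of all genes, and none lower. The median change of the PRC1 genes was −0.205 for CDK2i and 0.22 for EZH2i, against the members' −0.38 and 0.75. With the GC and length trend removed the PRC1 medians were −0.08 and −0.06, against the members' −0.22 and 0.10. BMI1 in EZH2i was then at 0.43, and CBX8 and CBX2 in CDK2i at −1.29 and −1.28. At the deposited scaling the extremes were PCGF5 at 0.77 in CDK2i, and CBX8 at −0.72 and PHC3 at 1.52 in EZH2i. EZH2i against CDK2i called CBX2 (1.61) and PHC2 (1.25) higher, 2 of 9 that reached the minimum, against 17.5% of all genes. CBX7 was lowest at −0.48.

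A list of 7 genes read as opposing Polycomb held the H3K27 demethylases KDM6A and KDM6B and the acetyltransferases CREBBP and EP300. It also held the deubiquitinase subunits BAP1, ASXL1 and ASXL2, which act on the H2A mark of PRC1. None of the 7 was called against vehicle in either tumor, but only 3 reached the minimum in CDK2i and 5 in EZH2i. Of all genes that reached it, 3.27% and 8.93% were called higher and 8.07% and 4.42% lower. The 6 expressed genes of this list had a median change of −0.39 under CDK2i and of 0.60 under EZH2i. ASXL1 was lowest under CDK2i at −0.74 and KDM6B highest at 0.25, while under EZH2i BAP1 was lowest at 0.25 and ASXL2 highest at 1.39. Between the treated tumors BAP1 differed least (0.005) and ASXL2 most (1.72, under the minimum). ASXL1 (1.46) and EP300 (1.36) were called higher in EZH2i than in CDK2i, 2 of 5 that reached the minimum, against 17.5% of all genes. Of the 22 genes of other complexes that hold RBBP4 or RBBP7 (the NuRD and SIN3 deacetylases, CAF-1, HAT1 and the LIN complex), 19 were expressed, with median changes of −0.15 and 0.31. SIN3A was called lower in CDK2i (−1.09), the single call of 15 genes that reached the minimum, against 8.07% of all genes. None of 17 was called in EZH2i, against 8.93% of all genes called higher and 4.42% lower. GATAD2B was lowest in CDK2i at −1.18 and CHD3 highest at 0.53, while in EZH2i MBD3 was lowest at −0.36 and HAT1 highest at 0.81. SIN3A (1.68) and LIN9 (1.55) were called higher in EZH2i than in CDK2i, 2 of 17 against 17.5% of all genes. At the deposited scaling GATAD2B was highest in this comparison at 1.78 but under the minimum, and CHD3 lowest at −0.43. With the trend removed SIN3A was at 0.97 and LIN9 at 0.79, under the fold threshold. SIN3A in CDK2i against vehicle was then at −0.97, under it as well.

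EZH2 is known as an E2F-responsive gene of dividing cells, and 20 proliferation genes were read beside it. In EZH2i 6 of the 19 that reached the minimum were called higher and none lower, against 8.93% and 4.42% of all genes. These were MKI67 at a log2 change of 1.51, RRM2 at 1.32, TOP2A at 1.28, CDK1 at 1.10, CCNA2 and CCNB1. EZH2 was at 0.88, under the fold threshold of a call, and the median of the list was 0.67. With the GC and length trend removed the median was 0.44 and EZH2 was at 0.52. None of these 6 then stayed above the fold threshold, with MKI67 at 0.88, RRM2 at 0.80 and TOP2A at 0.51. In CDK2i none of 16 was called, against 3.27% of all genes called higher and 8.07% lower. The median of the list in CDK2i was −0.20, and 0.017 with the trend removed. At the deposited scaling CDC6, a licensing factor for replication origins, was lowest in CDK2i at −1.80, and MCM2 highest at 0.19. CDC6 was under the minimum in both libraries. E2F1 was lowest in EZH2i at −0.31. EZH2i against CDK2i called 8 of 19 higher, against 17.5% of all genes. They were the same 6 with AURKB (1.27) and CDC6 (2.49), and MCM7 was lowest at −0.155. CDK2 itself measured 7.38, 7.12 and 11.6 FPKM in the vehicle, CDK2i and EZH2i tumors, and CCNE1, which encodes its partner cyclin E1, 6.30, 2.89 and 9.30. CCNE1 was called higher in EZH2i than in CDK2i (1.69). CCNE2 was at 1.31, 1.30 and 2.47 FPKM.

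**Figure D5:**
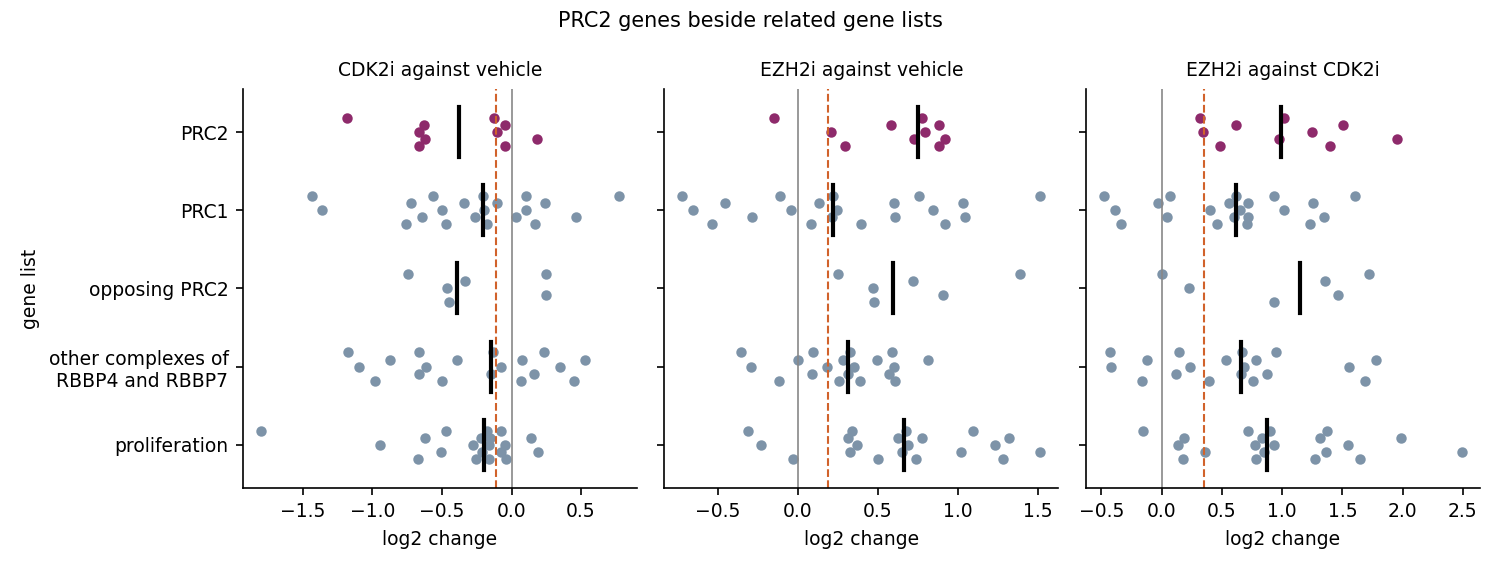
Log2 change of each expressed gene (points) in PRC2 and 4 related lists (rows) for the 3 comparisons (panels), with the list median (black bar) and the median of all expressed genes (dashed). The PRC2 bar is at −0.38, 0.75 and 0.99, and the proliferation bar at −0.20, 0.67 and 0.87.

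Counting could have shared fragments between some members and other loci. SUZ12P, a pseudogene of SUZ12, was listed at 4.92, 3.52 and 10.1 FPKM in the vehicle, CDK2i and EZH2i tumors, close to SUZ12 itself in vehicle and EZH2i, so the values of SUZ12 are uncertain to that extent. RBBP4P1 and RBBP4P2 were at most 0.135 FPKM. Exons of RBBP4 overlap the antisense gene SYNC over 2160 of 9470 bases, those of RBBP7 overlap TXLNG over 179 of 7340, and those of EED overlap a noncoding gene over 221 of 6995. SYNC was at 2.93, 3.12 and 5.99 FPKM and TXLNG at 3.32, 2.11 and 6.40. Strand use in the counting is not given in the sources used here, so fragments of these overlaps cannot be assigned.

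On GRCh37 the members lie apart from each other. EZH2 spans 148504349 to 148581413 of chromosome 7 (minus strand) and EZH1 40852293 to 40897067 of chromosome 17 (minus). SUZ12 spans 30264026 to 30328057 of chromosome 17 (plus) and EED 85912254 to 85989855 of chromosome 11 (plus). RBBP4 (33116743 to 33151812) and MTF2 (93544792 to 93604636) are both on the plus strand of chromosome 1. RBBP7 spans 16857406 to 16888485 of chromosome X (minus), JARID2 15246300 to 15522273 of chromosome 6 (plus), AEBP2 19556979 to 19873735 of chromosome 12 (plus) and PHF19 123617929 to 123657174 of chromosome 9 (minus).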

How the data were processed

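RNAseq of 3 SUM-149 xenograft samples, 1 per treatment, was analysed. The authors aligned reads to GRCh37 (hg19), and the submitters' processing notes name CASAVA and STAR. The counting tool, gene lengths and filters are not given in the sources used here. The authors deposited 1 log2 FPKM value for each gene symbol and library, with −9 listed in place of an FPKM of 0. The study's limma p-value was not repeated, since 1 library per group leaves no estimate of the error.

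Log2 changes were differences of the deposited values with no pseudocount, described beside all 29689 genes. Depth was read from the step of 1 fragment in low values and the canonical transcript lengths of GENCODE 44 on GRCh37. Fragment numbers of members use these lengths and are approximate. The GC and length trend was fitted by a polynomial of degree 3 over 10082 expressed genes without ribosomal protein and mitochondrially encoded genes. The fit also removes the mean change. Of the expressed genes 91.6% had a transcript.

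The members, gene lists, thresholds and alternatives were chosen with earlier results of these data known, and the pairs for ratios and the promoters shown after the values were seen. The genes named are all members, CDK2 and its E cyclins, and of each list the called and the extreme genes among those expressed. For the fibroblast list the markers that were not expressed are named too. For EZH2 the nearest genes by both changes are named in the closing section. The calculations were tested on simulated data. Python 3.11.15, numpy 2.4.6, pandas 2.3.3, scipy 1.17.1 and matplotlib 3.10.9 were used.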

Additional observations from a re-analysis of the deposited data

How the results depend on the processing

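No replicate was analysed for any treatment, so leaving out a library was not possible. No paired analysis was possible because each group has 1 library. In CDK2i against vehicle no member was called under any of the 6 alternatives of scaling, pseudocount or trend. With a fold of 1.5, 1 member of 5 was called lower (EZH1), as were 18.8% of the genes that reached the minimum. MTF2 was called, 1 of 10, when the minimum was dropped (23.15% of genes called lower) or set to log2 FPKM 1 (13.2%). In EZH2i against vehicle equal summed FPKM called 5 members higher (EZH2, SUZ12, RBBP4, AEBP2 and MTF2), when 17.7% of the genes that reached the minimum were called higher, and a fold of 1.5 called 7, when 24.5% were. In EZH2i against CDK2i the 5 called became 2 after centring on the median expressed gene, 1 with the GC and length trend removed or with a fold of 3 (5.83% of genes called higher), and 0 with a minimum of log2 FPKM 5, which 1 member reached. It was 4 with a pseudocount of 1, 6 with equal summed FPKM in both forms and 7 with a fold of 1.5 (33.4%). The median difference of the members in that comparison fell from 0.99 to 0.13 with the trend removed. Of 180 values of single members under the alternatives of scaling, pseudocount and trend, 176 moved by less than the spread of the gene and 4 by more, all with the trend removed. These were RBBP4 and AEBP2 in EZH2i against vehicle and against CDK2i. PHF19 and RBBP7 changed sign in all 3 comparisons, SUZ12 and AEBP2 in CDK2i against vehicle, and EZH1 and RBBP4 in both comparisons of EZH2i, under at least 1 of these alternatives each, and none of them was called there. Each member rests on about 189 or more fragments in every library, and no value carries an error between tumors.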

Other observations

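Among the 11109 expressed genes, those whose pair of log2 changes from vehicle lay nearest to the pair of EZH2 (−0.62 in CDK2i and 0.88 in EZH2i) were ARHGAP32 (−0.62 and 0.86), FAM13B (−0.60 and 0.87), BRD8 (−0.65 and 0.88), TRNT1 (−0.62 and 0.85) and the clone-named gene RP4-564F22.5 (−0.60 and 0.86). The likeness is the Euclidean distance between these pairs over 3 libraries that share the vehicle value, and it carries no test. Ranked by this distance among 11108 other genes, JARID2 came at place 107 and EED at 407, while AEBP2 was at 1067, MTF2 at 1463 and SUZ12 at 1495. RBBP4 (3155), RBBP7 (3272), PHF19 (3496) and EZH1 (5076) were farther away.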
